A study of Mus musculus with 4 samples.

Results

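Ubiquitin-specific proteases (USPs) are cysteine proteases that remove ubiquitin from proteins or trim ubiquitin chains, and they form a large family of the deubiquitinases. By opposing ubiquitin ligases, they set how long substrates persist, where membrane proteins are sorted and how signaling proteins, histones and DNA repair factors act. USP9X belongs to this family, and it was depleted in the ovarian cancer cells described here. The mRNA levels of its relatives were therefore compared between control and depleted cells. Of 22063 genes in the deposited table, 56 carried a symbol made of Usp and a number, and 54 remained after Usp9x, the target of the knockdown, and Usp18, which acts on the ubiquitin-like modifier ISG15, were left out. All 54 are protein-coding genes in GENCODE M21 (GRCm38). One of them, Usp6nl, is a Rab GTPase-activating protein and not a protease, and it was kept because the members were chosen by symbol.

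The ID8 line of mouse ovarian cancer was derived from ovarian surface epithelium. Its cells carried a control shRNA (shCtrl, 2 libraries, genotype labelled WT) or an shRNA against USP9X (shUSP9X, 2 libraries, genotype labelled USP9X knockdown). The shRNAs were delivered by lentivirus in a pLKO.1-puro vector. Poly(A) RNA was sequenced with a kit that does not mark the strand. The sources do not state which shRNA sequence was used, whether the cells received TGF-β1 or low oxygen, or whether the libraries of a group came from separate cultures, so p-values measure only the spread between these libraries. Estimated counts summed to 17232006 and 15611363 in shCtrl and to 19978889 and 17021261 in shUSP9X. Usp9x, the targeted gene, had 5169 and 4453 counts in the control libraries but 390 and 346 in the depleted ones, a log2 fold change of -3.85 ± 0.0585 (SE; edgeR adjusted p = 4.66e-26), which matched the labels. With the offset for GC content and length described below, the log2 fold change of Usp9x (40% GC) was -2.31.

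The study's list of constructs holds a pair of shRNA targets for mouse Usp9x, shown here because each could in principle meet a relative. Both lie in the coding sequence of Usp9x on the plus strand of chromosome X (GRCm38), the first at chrX:13107160-13107180 in exon 7 of 45 and the second at chrX:13159883-13159903 in exon 38. Lower-case letters match the shRNA target and capitals mark mismatches to it.
shUSP9X#2 target in Usp9x: gataattgcagcccttattaa
closest site in Usp9y: AaCaattgcagcTcttattaa
closest site in Usp29: gatTatGgcaTAccttaACaa
shUSP9X#3 target in Usp9x: tcgtaatgtatgccaatttag
closest site in Usp9y: tTAtaatgtatgccaGCttag
closest site in Usp29: GcAtTatgtatgccaatCtag
Usp9y, the Y-linked copy of Usp9x, had 3 and 4 mismatches to the respective targets, and Usp29 had 6 and 4. No transcript of the 43 members that could be tested came within fewer than 6 mismatches of either 21-base target.

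USPs share a short box around the catalytic cysteine, and in the coding sequence of 50 of the 54 members a codon for that cysteine was found in such a box. Boxes are shown for the 3 members with the largest called falls and the one with the largest rise. A pair of close paralogs that moved in opposite directions is added. These picks hold for the fit without the offset for GC content and length described below. Each box has 30 bases, 5′ to 3′ on the coding strand, with the cysteine codon in capitals and its GRCm38 position.
Usp34, chr11:23426724-23426726: actaaccttggagctactTGTtacttggcc
Usp53, chr3:122968610-122968612: gagccagggcagaacagcTGCtttctaaac
Usp35, chr7:97314775-97314777: attaacttgggcaacacaTGCtacgtgaac
Usp10, chr8:119947152-119947154: atcaataaaggaaactggTGCtacattaat
Usp15, chr10:123146815-123146817: agtaacttgggaaatacgTGTttcatgaac
Usp4, chr9:108366855-108366857: ggaaacctggggaacactTGCttcatgaac
Usp4 and Usp15 differed at 7 of the 30 bases, and Usp53 and Usp54, whose boxes diverge from the others, differed at 3. The pattern was not found in Usp21, Usp39, Usp47 and Usp6nl, and of these Usp39 is known to lack the catalytic cysteine. The search used a fixed residue pattern, so a missing match does not by itself show that a member lacks the cysteine.

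Of the 54 members, 43 passed the filter on low counts and were tested, and 11 did not pass. Per length of transcript (FPKM), mean levels of the tested members ran from 0.199 for Usp17la to 70.8 for Usp5, with a median of 14.5, and 28 members reached 10 or more. The 3 most abundant members were Usp5, which takes apart free ubiquitin chains, Usp14, which sits on the proteasome, and Usp39, a spliceosome component. The mean over the 4 libraries was under 1 FPKM for 3 tested members, Usp35, Usp50 and Usp17la.

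**Figure D1:**
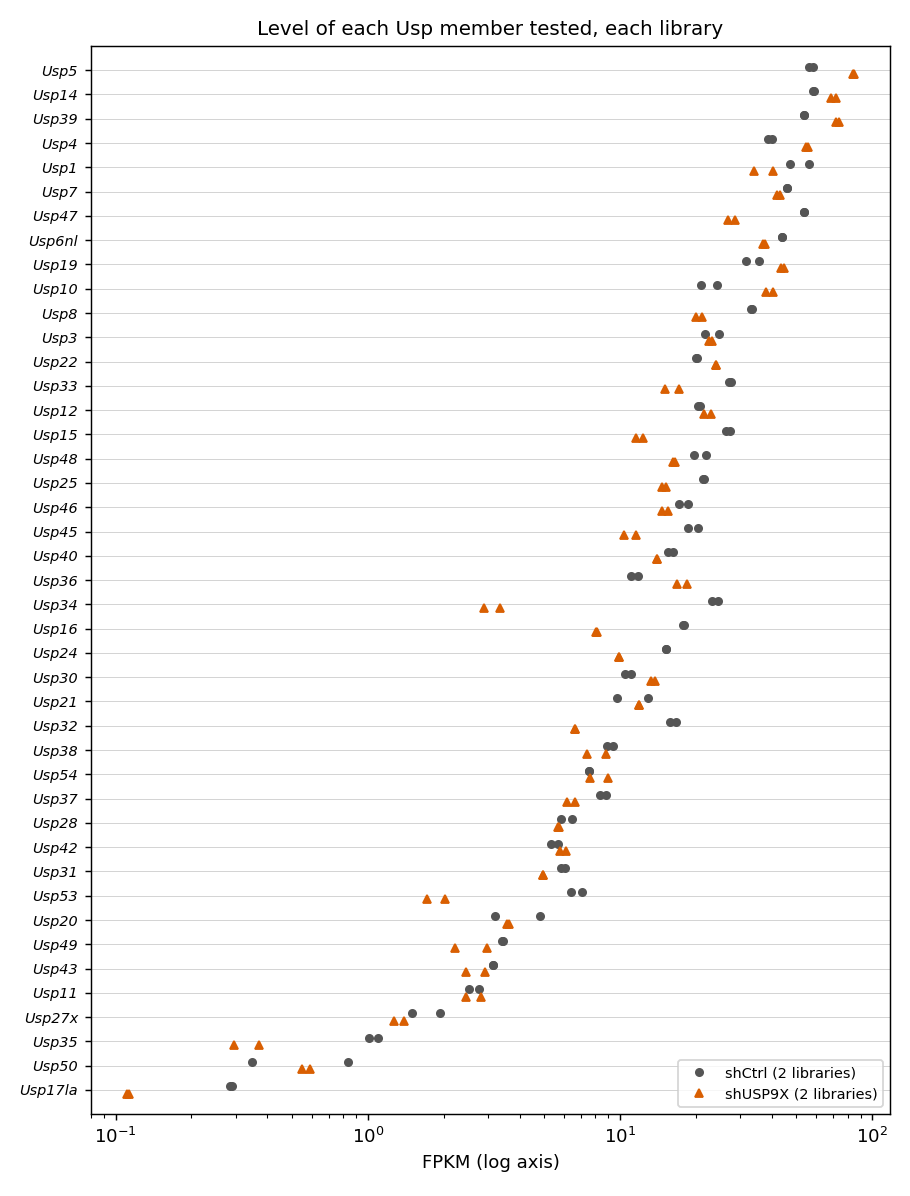
FPKM (log axis) of each of the 43 tested Usp members in the 2 shCtrl libraries (circles) and the 2 shUSP9X libraries (triangles), ordered by mean level. Usp5 is highest at a mean of 70.8 and Usp17la lowest at 0.199, and the circles and triangles of Usp34 lie far apart.

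Upon USP9X knockdown, more members of the family were lower than higher. At an adjusted p under 0.05 in edgeR's quasi-likelihood test, 20 of the 43 (46.5%) were lower in shUSP9X, 10 (23.3%) were higher and 13 were not called, beside 33.6% lower and 33.8% higher among all 11448 genes tested. With a fold change above 1.5 as well, 12 members were lower (27.9%, against 18.5% of all genes) and 1, Usp10, was higher (2.33%, against 10.6%). The median log2 fold change was -0.21 over the members and -0.0005 over all genes. Without Usp6nl, 19 of 42 were lower and 10 higher. In 25 members (58.1%) every depleted library was under every control, and in 11 (25.6%) every one was over them, against 41% and 41.2% of all genes. The remaining 7 members had overlapping groups.

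Summed over the 54 members, CPM (counts scaled to library size by TMM) amounted to 3750 and 3756 in shCtrl and to 3243 and 3223 in shUSP9X. The sum thus fell by 520 CPM, and Usp34 alone fell by 196. The 20 members called lower summed to 2225 and 2193 CPM in shCtrl and to 1330 and 1320 in shUSP9X, while the 10 called higher went from 1055 and 1078 to 1454 and 1449. These members were chosen by their calls in the same libraries, so the directions of both sums follow from the choice.

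**Figure D2:**
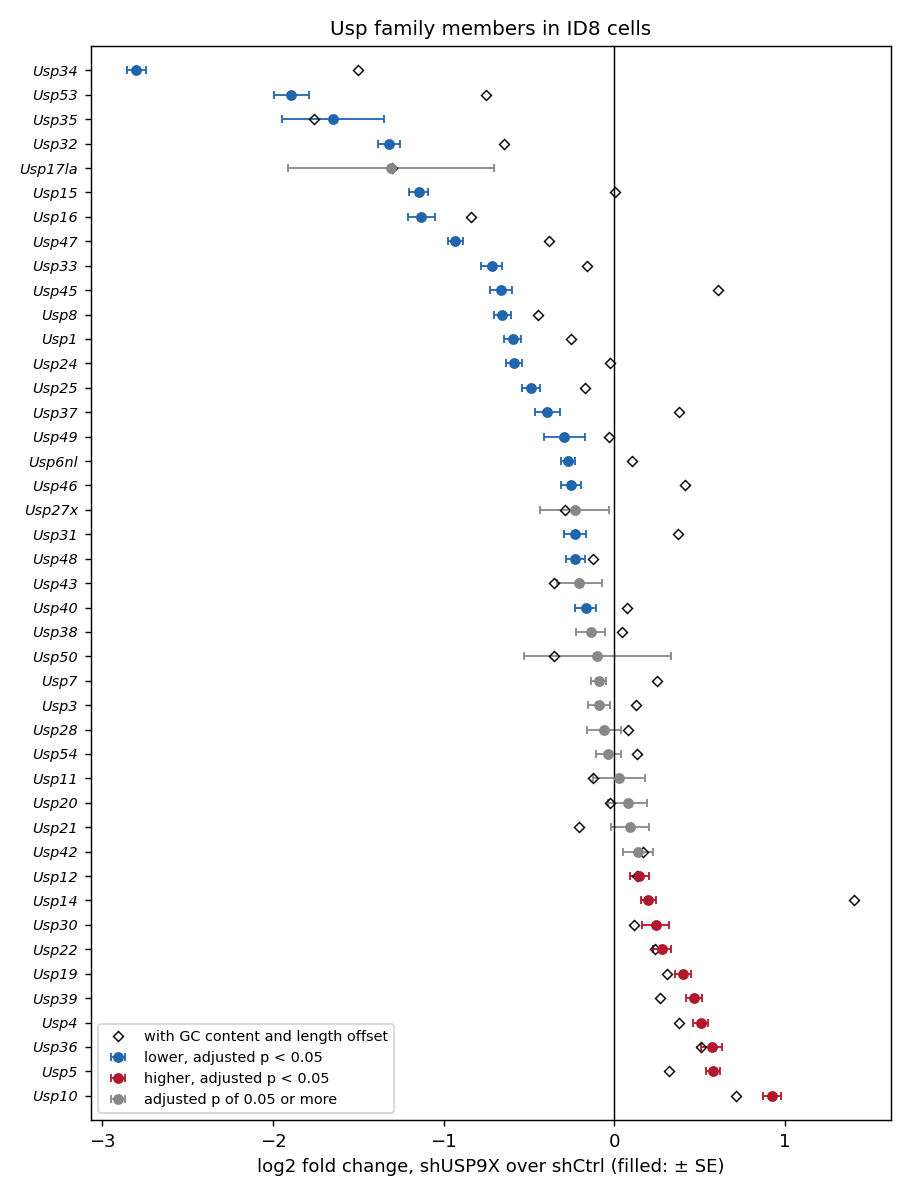
Log2 fold change (shUSP9X over shCtrl) of the 43 tested members, with filled circles and bars for the estimate ± SE (blue lower, red higher, grey not called) and open diamonds for the estimate with the GC content and length offset. Usp34 lies at -2.80 and Usp10 at 0.92, and the diamonds of most members with a negative fold change lie to the right of their circles.

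The fold changes of the members followed the base composition of their transcripts, as did those of genes at large. Spearman's rho between log2 fold change and transcript GC content was 0.625 over the 43 members and 0.447 over 11430 genes, and with transcript length it was -0.346 and -0.331. These are correlations across genes of the same libraries, which share depth and processing and are not independent replicates. Among the 12 members with GC content under 45%, 11 were lower and 1, Usp14, was higher, with a median log2 fold change of -0.83. For all genes of that class the median was -0.54, and 70.3% were lower and 8.96% higher. Between 45 and 50%, 7 of 15 members were lower and 1 was higher, beside 34.2% and 31.2% of the genes of that class. Over 50%, 2 of 16 were lower, Usp35 and Usp49, and 8 were higher, beside 15.8% and 46.8% of genes, with a median of 0.19 over the members and also over the genes of the class.

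An offset that took each library's smooth trend on GC content and length out of the counts changed the balance. Both properties were those of the longest protein-coding transcript of a gene, which need not be the one its reads came from. With it, 12 members were lower and 15 higher, against 27.9% and 35.2% of all genes, and the median over the members was 0.04. Past 1.5-fold there were then 5 members lower (Usp34, Usp53, Usp35, Usp32 and Usp16) and 3 higher (Usp10, Usp14 and Usp45), against 12.4% and 11.3% of all genes. Of the 25 members called by both fits, 20 kept their direction, 11 lower and 9 higher. The other 5, Usp31, Usp37, Usp45, Usp46 and Usp6nl, went from lower to higher. The direction of the family as a whole thus depended on this setting, and whether the trend arose in the cells or in the libraries was not tested.

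**Figure D3:**
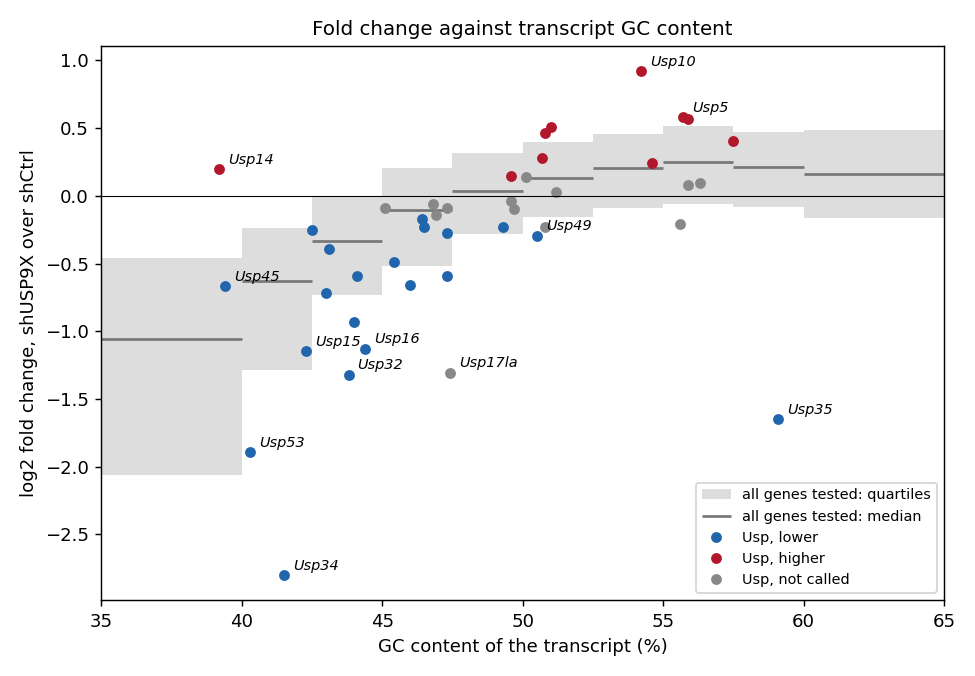
Log2 fold change (shUSP9X over shCtrl) against the GC content of the transcript (%) for the 43 tested Usp members (points, blue lower, red higher, grey not called), with the quartiles (grey boxes) and median (lines) of all genes tested in each GC class. The points rise with GC content as the boxes do, while Usp34 and Usp35, for example, lie below and Usp14 and Usp10 above the boxes of their classes.

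Without the offset, Usp34 fell most among the members, and with it Usp35 did. The product of Usp34, a very large protease, is known to deubiquitinate Axin in Wnt signaling. Its CPM was 227.1 and 230.5 in shCtrl and 33.9 and 31.6 in shUSP9X. Both depleted libraries were far below both controls. The log2 fold change was -2.80 ± 0.0548 (SE, n = 2 and 2; edgeR adjusted p = 3.29e-24), or 6.97-fold lower, and -1.502 with the offset (adjusted p = 9.42e-17). The gene lies on the plus strand at chr11:23306895-23490560, and 11.6% of its exonic bases overlap the antisense gene Ahsa2, whose reads could not be told apart without strand.

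Usp53, a protein of tight junctions, was next in the fit without the offset. It went from 38.6 and 39.2 CPM to 10.02 and 10.98, with no overlap between the groups (log2 fold change -1.89 ± 0.104, edgeR adjusted p = 9.12e-15; -0.75 with the offset). Its paralog Usp54 was at 45.6 and 47.2 CPM before and 45.8 and 44.8 after depletion, and it was not called (-0.03). Per length, Usp53 had 6.38 and 7.06 FPKM in the controls beside 7.52 and 7.51 for Usp54, and 1.72 and 2.02 beside 7.58 and 8.96 in the depleted libraries.

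Usp35, with 59.1% GC in its transcript, was lower, as were 15.8% of genes over 50% GC. It was among the weakest members tested, at 4.56 and 4.05 CPM in shCtrl and 1.27 and 1.48 in shUSP9X. The log2 fold change was -1.65 ± 0.299 (edgeR adjusted p = 2.52e-05) and -1.76 with the offset, from 79 and 64 counts in the controls and 25 in each depleted library. Its paralog Usp38 was not called (-0.14), and its groups overlapped. Leaving out shUSP9X replicate 1 or 2 put Usp38 at -0.27 or -0.01.

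Of 4 proteases of endosomes and membrane receptors, 3 were lower and 0 higher, without and with the offset (all genes 33.6% lower without and 27.9% with it). Usp32, which is anchored to endosomal and Golgi membranes, went from 94.2 and 93.6 CPM to 38.7 and 36.4 (log2 fold change -1.32 ± 0.0626, edgeR adjusted p = 4.17e-16; -0.65 with the offset). Usp8, which acts on receptors such as EGFR during endosomal sorting, went from 137.5 and 135.2 to 88.5 and 84.2 CPM (-0.66 ± 0.0502, adjusted p = 8.46e-12). Usp32 and Usp8 were both called lower with the offset too. Usp33 and Usp20 both bind the von Hippel-Lindau protein and recycle the β2-adrenergic receptor. Usp33 went from 108.0 and 104.7 to 60.6 and 69.0 CPM (-0.72 ± 0.06, adjusted p = 5.17e-11; -0.16 with the offset). Usp20 had overlapping groups and was not called (0.08). Antisense transcripts overlap 24.4% of the exonic bases of Usp33.

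The paralogs Usp4, Usp11 and Usp15 have each been linked to TGF-β receptors or Smads, and their directions differed. Usp15 went from 137.6 and 131.0 to 62.7 and 58.5 CPM, with no overlap (log2 fold change -1.15 ± 0.0549, edgeR adjusted p = 5.21e-16). With the offset its log2 fold change was 0.00 and the call was lost (edgeR adjusted p = 0.972). That offset used the longest protein-coding transcript of Usp15, and the implied lengths below pointed to shorter ones. Usp4 went the other way, from 127.1 and 133.9 to 188.5 and 181.6 CPM (0.51, and 0.38 with the offset), and both depleted libraries were above both controls. Usp11, at 9.49 CPM or less in the controls, was not called (0.03). In CPM summed over the trio, levels were 273.4 and 274.3 in shCtrl and 261.1 and 248.7 in shUSP9X. The GC content of the transcripts was 42.3% for Usp15, 51.0% for Usp4 and 51.2% for Usp11.

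Among 8 members that act on histones H2A and H2B, 6 were tested, 2 were lower (33.3%) and 1 was higher (16.7%), beside 33.6% and 33.8% of all genes, and with the offset 1 was lower and 1 higher, beside 27.9% and 35.2%. Usp16, an H2A deubiquitinase needed in mitosis, went from 55.5 and 54.5 CPM to 25.2 and 25.1 (log2 fold change -1.13 ± 0.0773, edgeR adjusted p = 9.32e-13; -0.84 with the offset). The values of the libraries within each group were close to each other, and the groups lay far apart. Usp49 was lower by a small margin (-0.29), with 52.3% of its exonic bases overlapped by other genes, mostly Gm20517, and its call was lost in 9 of 16 alternative fits, the offset and DESeq2 among them. Usp22, the deubiquitinase of the SAGA complex, was higher (0.28). Its paralog Usp27x (-0.23), Usp3 (-0.09) and Usp21 (0.09) were not called, and Usp51 and Usp44 had too few counts. Leaving out shCtrl replicate 1 or 2 put Usp21 at -0.11 or 0.33, Usp27x at -0.39 or -0.05 and Usp3 at -0.15 or -0.02.

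The group known from DNA damage and p53 regulation held 10 members, 8 of them tested, of which 4 were lower and 1 higher, each by more than 1.5-fold (18.5% and 10.6% of all genes). With the offset 2 were lower and 3 higher (27.9% and 35.2% of all genes), of which 0 and 2 passed 1.5-fold (12.4% and 11.3%). Usp47, which stabilizes DNA polymerase β, went from 277.8 and 274.9 CPM to 148.5 and 140.9 (log2 fold change -0.93 ± 0.0428, edgeR adjusted p = 2.07e-16; -0.38 with the offset). Usp1, which removes ubiquitin from FANCD2 and PCNA, went from 172.4 and 164.5 to 114.7 and 108.2 CPM (-0.60 ± 0.0486, adjusted p = 3.32e-11; -0.26 with the offset). Both were lower in every depleted library than in any control, and both calls held with the offset. Of the transcript of Usp1, 22.8% of 50-base stretches also occur in another gene, so that part of its count is uncertain.

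The calls of Usp45 and Usp24, from the same group, depended on the offset. Usp45, which acts on the repair nuclease subunit ERCC1, went from 91.2 and 92.9 CPM to 53.8 and 62.6 (-0.67 ± 0.0642, edgeR adjusted p = 8.58e-10), but with the offset it was higher (0.61). Its transcript has 39.4% GC. Usp24 went from 159.9 and 158.7 to 106.0 and 105.6 CPM (-0.59 ± 0.0469, adjusted p = 1.95e-11), and with the offset it was at -0.02 and not called (adjusted p = 0.648). Usp7, which deubiquitinates Mdm2 and p53, was at -0.09 (adjusted p = 0.0586) and was called higher with the offset (0.25, adjusted p = 6.9e-06). Usp28 (-0.06) and Usp11 were not called.

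Without the offset, Usp10 rose most, and with it Usp14 did. The product of Usp10 deubiquitinates p53 in the cytoplasm and binds the stress granule protein G3bp1. It went from 71.5 and 72.6 CPM in shCtrl to 132.2 and 140.8 in shUSP9X, with no overlap between the groups. The log2 fold change was 0.92 ± 0.0526 (edgeR adjusted p = 2.12e-14), or 1.89-fold, and 0.71 with the offset. Without the offset it was the sole member above 1.5-fold among those higher. Just under that threshold were Usp5 (1.495-fold) and Usp36 (1.484-fold), and just past it on the lower side were Usp24 (1.505-fold) and Usp1 (1.511-fold).

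**Figure D4:**
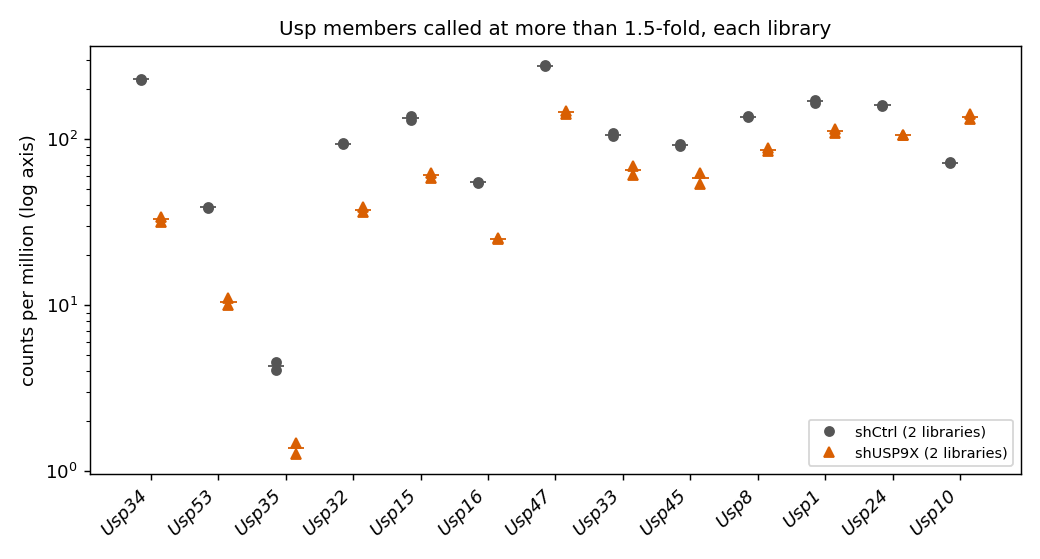
CPM (log axis) in each shCtrl library (circles) and shUSP9X library (triangles), with the group means (bars), for the 12 members called lower and the 1 called higher at more than 1.5-fold, ordered by fold change. Usp34 is at the left and Usp10 at the right. The 13 were chosen by these same values, so the gap between their groups follows from the choice. Among all genes, 41% had every shUSP9X library below every shCtrl library and 41.2% above.

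Usp5 and Usp14, which serve free ubiquitin chains and the proteasome, were both higher, without and with the offset. Among all genes, 33.8% were higher without the offset and 35.2% with it. Usp13, the paralog of Usp5, had 0 counts. Usp5 went from 172.8 and 175.5 to 261.2 and 259.5 CPM (log2 fold change 0.58 ± 0.0410, edgeR adjusted p = 1.78e-12; 0.32 with the offset). Usp14 went from 153.7 and 151.5 to 171.4 and 179.2 CPM (0.20 ± 0.0451, adjusted p = 0.000375). It was the single member under 45% GC that rose, and with the offset its log2 fold change was 1.41. That value used the longest protein-coding transcript of Usp14, and the implied lengths below pointed to shorter ones. The gene Thoc1 overlaps 26% of its exonic bases. Usp39, the spliceosome member, went from 119.3 and 119.1 to 167.2 and 162.4 CPM (0.47 ± 0.0464, adjusted p = 1.45e-09; 0.27 with the offset).

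The remaining members that rose have varied sites of action. Usp36, a nucleolar protease, was higher (0.57) and its paralog Usp42 was not called (0.14). Usp19, anchored in the endoplasmic reticulum, was higher (0.40). So was Usp30, a brake on mitophagy in the outer mitochondrial membrane (0.24). The call of Usp30 was lost in 4 of 16 alternative fits, the offset (0.11) and DESeq2 among them. Usp12 was higher by a small margin (0.15), a call that was lost in 6 of 16 alternative fits, DESeq2 and the FPKM fits among them, while its close paralog Usp46 was lower (-0.25). Usp12, Usp46 and Usp1 share the activating partner Wdr48, which itself was higher (0.20). Usp46 turned to 0.41 with the offset.

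Of the other members that were lower, all by less than 1.5-fold, Usp25 (-0.49) kept its call with the offset (-0.17), and its paralog Usp28 was not called in either fit. Usp48 (-0.23) also kept it (-0.12). Usp37, a protease of S phase entry, turned from -0.39 to 0.38, Usp31 from -0.23 to 0.38 and Usp6nl from -0.27 to 0.11. The call of Usp31 was not kept in 6 of the 16 alternative fits, DESeq2 and the FPKM fits among them. Usp40 was at -0.17 and lost its call in 9 of the 16 alternative fits, with the offset among them (0.07). Usp43, a paralog of Usp31, was not called (-0.21) but was called lower with the offset (-0.35). Usp50 was not called (-0.10), and its log2 fold change ran from -0.56 to 0.67 over 14 alternative fits.

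Several members known from testis had few or no counts. Usp13, Usp26 and Usp9y had 0 counts in all 4 libraries, which allows up to 3 counts in each. Usp29 had 0 and 1 counts against 2 and 0 after depletion, Usp51 had 1 count in 1 shCtrl library, and Usp2 had 5, 1, 4 and 2. Usp44, linked to the spindle checkpoint, had 5 and 5 counts against 2 and 0. These values were too low for a fold change. The 5 copies of the Usp17-like group, early response genes first known from blood cells, were all at 13 counts or less. Usp17la, the 1 that was tested, had 13 and 12 counts in the controls against 6 and 5 after depletion (log2 fold change -1.31, edgeR adjusted p = 0.0588). Usp17le had 5 and 5 against 0 and 1, and Usp17lb had 5 and 4 against 2 and 1. Usp17lc and Usp17ld stayed under 4 counts in every library. These copies share between 19.2 and 51.1% of their 50-base stretches with other genes, so reads could not be assigned among them with certainty.

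Counts and FPKM were deposited side by side, and their ratio follows the length of the transcripts to which the reads were assigned. For 42 members with at least 10 counts in every library, this implied length was compared by limma, and 0 members and 0 of 10862 genes (0%) passed an adjusted p of 0.05. Without shUSP9X replicate 2, 14 of the 42 members (33.3%) passed, beside 39.5% of all genes, in a fit whose spread came from the shCtrl libraries alone. At an unadjusted p under 0.05 there were 16 members, beside 44.9% of all genes. Usp34 had an implied length in shUSP9X that was 109% of that in shCtrl (adjusted p = 0.2), Usp53 96.4% (adjusted p = 0.607) and Usp10 109% (adjusted p = 0.344). These differences were small beside the changes in their counts. Relative to the median of its library, the log2 implied length of Usp14 (4726 bases in the offset) was -0.05 and -0.07 in shCtrl. Usp12 (4327 bases) had 0.66 in each shCtrl library. Usp15 (11525 bases) had 0.88 and 0.87 there, beside 0.92 in each for Usp47 (5816 bases). Usp14 and Usp15 thus had implied lengths short for the transcripts that the offset used. The effect on their offset values was not tested.

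Other genes of ubiquitin removal were examined beside the family. Of 38 other genes listed with the deubiquitinases, 36 were tested, and 14 were lower (38.9%) and 10 higher (27.8%), near the 33.6% and 33.8% of all genes. Their median log2 fold change was -0.06. With the offset 4 were lower and 18 higher (all genes 27.9% and 35.2%). Past 2-fold were Mysm1, an H2A protease (-1.82, and -0.53 with the offset), Mindy2 (-1.62, -0.66), Brcc3, the protease subunit of the BRCC36 complexes (-1.36, 0.42), Zup1 (-1.24, -0.19), Vcpip1 (-1.13, 0.46), Otud3 (1.45, 1.12) and Uspl1 (1.00, 1.06), which shares the USP fold but is known to act on SUMO. The call of Zup1 was lost with the offset, and Brcc3 and Vcpip1 were then called higher. Among 15 cofactors of USPs, 4 were lower (26.7%) and 6 higher (40%), none of them by more than 2-fold. With the offset 1 was lower and 10 higher, and Gmps, a partner of Usp7, was at 1.43 (-0.07 without it). The E1 enzyme Uba1 was higher (0.54), and Uba6, the other E1, was lower (-1.55), from 75.3 and 78.8 CPM to 25.9 and 26.7, a call that was lost with the offset (0.10).

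The identity of the cells was checked on marker genes. Of 8 ovarian surface epithelial and mesothelial markers, Krt8, Krt18, Krt19, Wt1, Msln and Upk3b had 162.7 CPM or more in every library, Krt7 had 0, 0, 2 and 3 counts, and Muc16 fell from 33 and 43 counts to 1 and 0. Krt8 (log2 fold change 0.92, and 0.59 with the offset), Krt18 (0.64, and 0.25) and Krt19 (0.12, but -0.24 with the offset) were higher. Wt1 (-0.52, and -0.76 with the offset) and Msln (-0.47, and -0.78) were lower. Upk3b was not called (0.05, but lower at -0.18 with the offset). Of 6 leukocyte markers, 3 had counts in the depleted libraries beyond a few and 0 in the controls, and they passed the filter only through the depleted libraries. The list summed to 0 and 0 CPM in shCtrl and to 8.04 and 9.14 in shUSP9X, with Itgam the most abundant at 0, 0, 72 and 75 counts. Adgre1 had 0, 0, 58 and 59 counts, Ptprc had 0, 0, 29 and 18, Lyz2 had 0, 0, 0 and 2, and Cd3e had 0 in all libraries. Of the fibroblast and pericyte markers, Pdgfra fell from 272 and 215 counts to 34 and 39 (-2.87, and -2.60 with the offset), Dcn was lower (-0.46) but was not called with the offset (-0.02), and Pdgfrb had 0 counts in all libraries. Of the endothelial markers, Pecam1 had 9, 19, 19 and 13 counts and Cdh5 had 0, as did the testis markers Tnp1 and Prm1. The epithelial marker Cdh1 was not called (0.21), and Epcam had 6 counts or less. Among mesenchymal markers, Vim was higher (0.39, and 0.10 with the offset) and Cdh2 was lower (-0.50, and -0.46 with the offset). The part of these transcripts in the results for the Usp members was not tested. In bulk RNA, fewer cells of a type and less RNA per cell cannot be told apart.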

How the data were processed

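RNA-seq of 2 shCtrl and 2 shUSP9X libraries of ID8 cells was used, grouped by the labels. The authors mapped reads to GRCm38 (mm10) and used StringTie 1.3.1 and DESeq2. Their processing notes also name fastp 0.18.0, Bowtie2 2.2.8, HISAT2 and RSEM. The authors deposited estimated counts and FPKM values per gene and library. Counts were rounded and tested with edgeR 4.0.16 (R 4.3.3; filterByExpr, TMM, quasi-likelihood test, Benjamini-Hochberg over 11448 genes), and CPM values are TMM-scaled. The biological coefficient of variation was 0.0352. Libraries of a group differed by more than sampling noise (chi-square per gene 3.35 and 2.23). The offset removed each library's loess trend (span 0.3) on transcript GC content and length, known for 99.8% of genes from GENCODE M21. Both were taken from the longest protein-coding transcript of a gene, or from its longest transcript where none is protein-coding. Implied lengths were tested with limma 3.58.1. Alternatives were DESeq2 1.42.0, other scalings and filters, FPKM on a log2 scale, a replicate block and each library left out. Procedures were tested on simulated data. The floor of 3 counts covers counting error only.

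The members and lists were chosen with earlier results of these data known. Given in full are members with an adjusted p under 0.05 and a fold change above 1.5 and the 3 with the highest mean FPKM. Other members have the log2 fold change, untested ones their counts, and genes of other lists are named past 2-fold. Usp4 and marker, E1 and cofactor genes under 2-fold were named with values seen. Some genes of the lists are not reported here. Cysteine codons were found by a residue pattern in the longest coding sequence, and shRNA targets were slid without gaps along all GENCODE M21 transcripts of the members.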

Additional observations from a re-analysis of the deposited data

How the results depend on the processing

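With 2 libraries a group, small changes among the members rest on little replication, and 11 members had too few counts to be tested. The counts of members lower and higher (20 and 10) were 12 and 15 under the offset for GC content and length, with and without the replicate block, and 13 and 1 at the cutoff of the study (unadjusted p under 0.05, fold above 1.5), which 18.7% and 10.8% of all genes passed. The median log2 fold change of the family (-0.21) was -0.17 with upper quartile scaling and with log2(FPKM + 1), -0.16 with log2(FPKM + 1) without a filter, and 0.0432 with the offset and 0.0388 with offset and block. With a library left out, the spread came from the other group alone, and the lone library was assumed to vary like it. The median then ran from -0.2091 to -0.1454, the latter without shCtrl replicate 1. Members called lower ran from 18 to 21 and called higher from 9 to 11, beside 28.3% to 31.2% and 29.2% to 33% of all genes. The offset turned the sign of the log2 fold change for 15 members, 7 of them called neither with nor without it. The other 8, each with its value under the offset alone and with the block, were Usp15 (0.0024 and 0.0010), then not called, Usp31 (0.3754 and 0.3753), Usp37 (0.3809 and 0.3792), Usp40 (0.0733 and 0.0734), likewise not called, Usp45 (0.6050 and 0.6043), Usp46 (0.4114 and 0.4116), Usp6nl (0.1050 and 0.1050) and Usp7 (0.2483 and 0.2483). The cause was not tested. In DESeq2, 17 members were lower and 8 higher (23.6% and 25.1% of all genes), and Usp12, Usp30, Usp31, Usp40 and Usp49 were no longer called. Under the other scalings the all-gene median stayed between -0.0293 and 0.0323.

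For the other deubiquitinases, the counts lower and higher (14 and 10) were 4 and 18 with the offset, 6 and 18 with offset and block, and 8 and 3 at the cutoff of the study, and the median (-0.06) was 0.1130 and 0.1131 with the offset fits and ran from -0.0790 to 0.0111 with a library left out. Among all genes, 27.9% were lower and 35.2% higher with the offset, and 28.3% and 35.6% with offset and block. At the cutoff of the study the shares were 18.7% and 10.8%. For the cofactors (4 and 6) they were 1 and 10 in both offset fits and 1 and 0 at that cutoff, with a median (0.0244) of 0.1787 and 0.1784 and a range from -0.0222, without shUSP9X replicate 2, to 0.0597. For the 6 ubiquitin and E1 genes (2 and 4, beside 33.6% and 33.8% of all genes) they were 1 and 1 in both offset fits and 1 and 0 at that cutoff, with a median (0.32) of -0.0154 and -0.0153, 0.35 with upper quartile scaling, 0.29 with library size only and 0.2803 to 0.3297 with a library left out. The implied length test called 0 members, or between 0 and 14 with a library left out, 14 (beside 39.5% of all genes) without shUSP9X replicate 2. The libraries' numbers did not pair them (correlation of deviations -0.045), and the replicate block alone gave 20 members lower and 10 higher and changed no call of a member.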
